A study of Mus musculus with 10 samples.

Results

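The MHC class II genes and their coactivator Ciita were examined as 1 group of 9 listed genes in pro-B cells with different doses and forms of Pax5. The members are Ciita, Cd74, H2-Aa, H2-Ab1, H2-Eb1, H2-DMa, H2-DMb2, H2-Oa and H2-Ob. They were taken by name from a list that was drawn up with earlier results of these data known, and all 9 were among the 25579 genes of the RNA-seq tables and among the 13436 genes with 1 or more transcripts per 1000000 (TPM) in 1 or more libraries, which were tested. The Pax5 peaks in these genes or within 10 kb of them were taken from 2 peak lists. They numbered 16 of the 41983 peaks of Rag2(-/-) cells and 14 of the 18821 peaks of Pax5(R31Q/-) cells.

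MHC class II molecules carry peptides from the endosomal pathway to the cell surface, where CD4 T cells read them, and mouse B cells express them more strongly as they mature. Ciita does not bind DNA itself but is recruited to class II promoters by the RFX complex, CREB and NF-Y, which sit on the conserved X and Y boxes, and its own gene has separate promoters that are used in dendritic cells, in B cells and after interferon-γ. H2-Aa pairs with H2-Ab1 to form the I-A molecule and H2-Eb1 encodes the beta chain of I-E, Cd74 is the invariant chain that fills the groove during transport, H2-DMa and H2-DMb2 encode chains of the H2-M exchange factor that loads peptides, and H2-Oa and H2-Ob form H2-O, which restrains H2-M and is most typical of B cells.

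RNA was sequenced from cells sorted out of the bone marrow of C57BL/6 mice, with 2 libraries for each of 4 genotypes. The Pax5(+/+) cells had both wild-type alleles, and the Pax5(+/-) cells had 1 wild-type and 1 null allele. In Pax5(R31Q/-) cells the single remaining allele, made by CRISPR-Cas9 editing of zygotes, encoded a Pax5 protein with an arginine-to-glutamine change in the DNA-binding paired domain. In Pax5(fl/fl) Vav-Cre cells both floxed alleles were exposed to a Cre that is expressed throughout blood cells, so that other blood lineages of these mice carried it too. The labels call the last group progenitor cells and the other 3 groups pro-B cells. Ages, sexes and pooling of mice are not given in the sources used here, and nothing says that the 2 libraries of a genotype came from separate mice, so that p-values measure only the spread between these libraries. Pax5 binding was mapped with an antibody against the paired domain in pro-B cells grown for a short time on OP9 stroma with IL-7, with 1 library from Rag2(-/-) cells, which lack V(D)J recombination and carry no Pax5 mutation by their labels, and 1 from Pax5(R31Q/-) cells. The description of the second library attaches R31Q to Rag2, whereas its genotype entry gives Pax5(R31Q/-), which was used.

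The depth on genes was between 21625407 and 34488454 reads per library. Pax5 itself had 417.8 and 443.7 TPM in Pax5(+/+), 272.1 and 286.6 in Pax5(+/-), 306.2 and 293.0 in Pax5(R31Q/-) and 1241.6 and 1408.6 in Pax5(fl/fl) Vav-Cre libraries, and since a gene-level value is blind to a deleted exon, the last pair does not check its label. The gate of the Pax5(fl/fl) Vav-Cre cells is not given in the sources used here. In bulk RNA, fewer cells of a type and less RNA per cell cannot be told apart.

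The X and Y boxes that carry Ciita's function were looked for first, in RefSeq promoter windows of GRCm38.p6 that run from 250 bases before to 50 bases after a start site. The table holds 7 windows for 6 of the 9 members, and none for Ciita, Cd74 and H2-Ab1. The Y box was searched on both strands as TGATTGG, and the core of the X box as AAC followed by 22 to 27 bases and then TGATTGG, a spacing set after these windows had been seen. This pair was found in 5 of the 7 member windows and in 0.618% of all 32851 windows, and TGATTGG alone in 7.82%. The stretches of these 5 members are shown as the letters searched, with AAC and TGATTGG in capitals and the strand of the gene. The windows of H2-DMb1 and H2-Eb2, the close relatives of H2-DMb2 and H2-Eb1, are given with them. The stretches lie at chr17:34092289-34092352 for H2-Oa, chr17:34145112-34145175 for H2-DMb2, chr17:34238804-34238864 for H2-Ob, chr17:34287855-34287918 on the minus strand for H2-Aa, chr17:34305762-34305824 for H2-Eb1, chr17:34153083-34153146 for H2-DMb1 and chr17:34325529-34325591 for H2-Eb2.
H2-Oa: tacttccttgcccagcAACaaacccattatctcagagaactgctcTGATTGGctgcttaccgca
H2-DMb2: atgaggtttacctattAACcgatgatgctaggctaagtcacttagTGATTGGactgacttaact
H2-DMb1: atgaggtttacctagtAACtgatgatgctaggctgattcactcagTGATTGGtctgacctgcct
H2-Ob: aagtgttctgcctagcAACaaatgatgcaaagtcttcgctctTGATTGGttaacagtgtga
H2-Aa: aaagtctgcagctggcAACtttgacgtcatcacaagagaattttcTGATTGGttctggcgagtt
H2-Eb1: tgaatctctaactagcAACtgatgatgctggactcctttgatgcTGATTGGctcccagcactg
H2-Eb2: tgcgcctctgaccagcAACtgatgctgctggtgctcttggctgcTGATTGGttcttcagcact

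In these windows the Y box began between 45 bases before the start of H2-Oa and 102 bases before that of H2-Eb2. The gap between AAC and the Y box was 26 bases in H2-Oa, H2-DMb2, H2-DMb1 and H2-Aa, 25 in H2-Eb1 and H2-Eb2 and 23 in H2-Ob. The windows at both curated starts of H2-DMa, 34122832 and 34125518, held no TGATTGG. A match describes these letters and is not by itself a bound site.

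The levels are given by role, in TPM, which is per length and so can be compared between genes. The length behind the TPM values, taken from the reads and TPM of each gene, was close to that of the curated RefSeq exons for the other members but 0.43 times it for H2-DMb2, so the place of H2-DMb2 among the members rests on a shorter gene model. Ciita, at chromosome 16 from 10480072 to 10527640, was the lowest member in each genotype, with 4.86 and 2.91 TPM in Pax5(+/+), 2.85 and 2.9 in Pax5(+/-), 1.59 and 1.68 in Pax5(R31Q/-) and 2.54 and 2.95 in Pax5(fl/fl) Vav-Cre libraries. These values rest on 133 to 406 reads, and the Pax5(R31Q/-) pair lay under the libraries of each of the other genotypes, while the other 3 genotypes overlapped or nearly did.

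Among the classical chains, H2-Ab1 (chromosome 17, 34263227 to 34269418) had 193.3 and 204.9 TPM in Pax5(+/+), 157.7 and 163.0 in Pax5(+/-), 94.7 and 102.3 in Pax5(R31Q/-) and 66.9 and 85.8 in Pax5(fl/fl) Vav-Cre libraries. It was the only member of the 3 classical chains whose 4 genotypes did not overlap anywhere. H2-Aa, its partner (34282744 to 34287823, minus strand), had 41.1 and 29.9, 20.6 and 24.3, 13 and 20, and 23.9 and 62.5 TPM in the same order of genotypes, and H2-Eb1 (34305867 to 34316674) had 14.7 and 11.6, 9.53 and 12.6, 6.28 and 10.3, and 12.1 and 21.8 TPM. Both were lower in Pax5(R31Q/-) than in Pax5(+/+) in each library, and in both the second Pax5(fl/fl) Vav-Cre library stood highest of all 8. Cd74, the invariant chain (chromosome 18, 60803849 to 60812652), had 130.7 and 209.3 TPM in Pax5(+/+), 160.1 and 135.0 in Pax5(+/-), 49.7 and 75.7 in Pax5(R31Q/-) and 147.8 and 259.1 in Pax5(fl/fl) Vav-Cre libraries, so that only the Pax5(R31Q/-) pair stood apart.

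The accessory molecules behaved differently from each other. H2-DMa (34122832 to 34139101) had 19.4 and 26.2 TPM in Pax5(+/+), 21.9 and 24 in Pax5(+/-), 19.1 and 19 in Pax5(R31Q/-) and 111.7 and 90.7 in Pax5(fl/fl) Vav-Cre libraries. H2-DMb2 (34143229 to 34151553) had 6.22 and 11.8, 9.84 and 7.98, 7.22 and 7.2, and 22.3 and 27.9 TPM, on 68 to 310 reads. Both H2-M chains overlapped or nearly did among the other 3 genotypes and stood clear of them in the Pax5(fl/fl) Vav-Cre libraries. H2-Ob (34238905 to 34245908) took the opposite course, with 139.1 and 176.5 TPM in Pax5(+/+), 108.4 and 98.3 in Pax5(+/-), 71.6 and 55.2 in Pax5(R31Q/-) and 39.4 and 39.1 in Pax5(fl/fl) Vav-Cre libraries, and no 2 genotypes overlapped. Its partner H2-Oa (34092379 to 34095234) had 46.6 and 71.4, 46.3 and 44, 30.4 and 27.5, and 53.8 and 45.7 TPM, lowest in the Pax5(R31Q/-) pair.

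**Figure D1:**
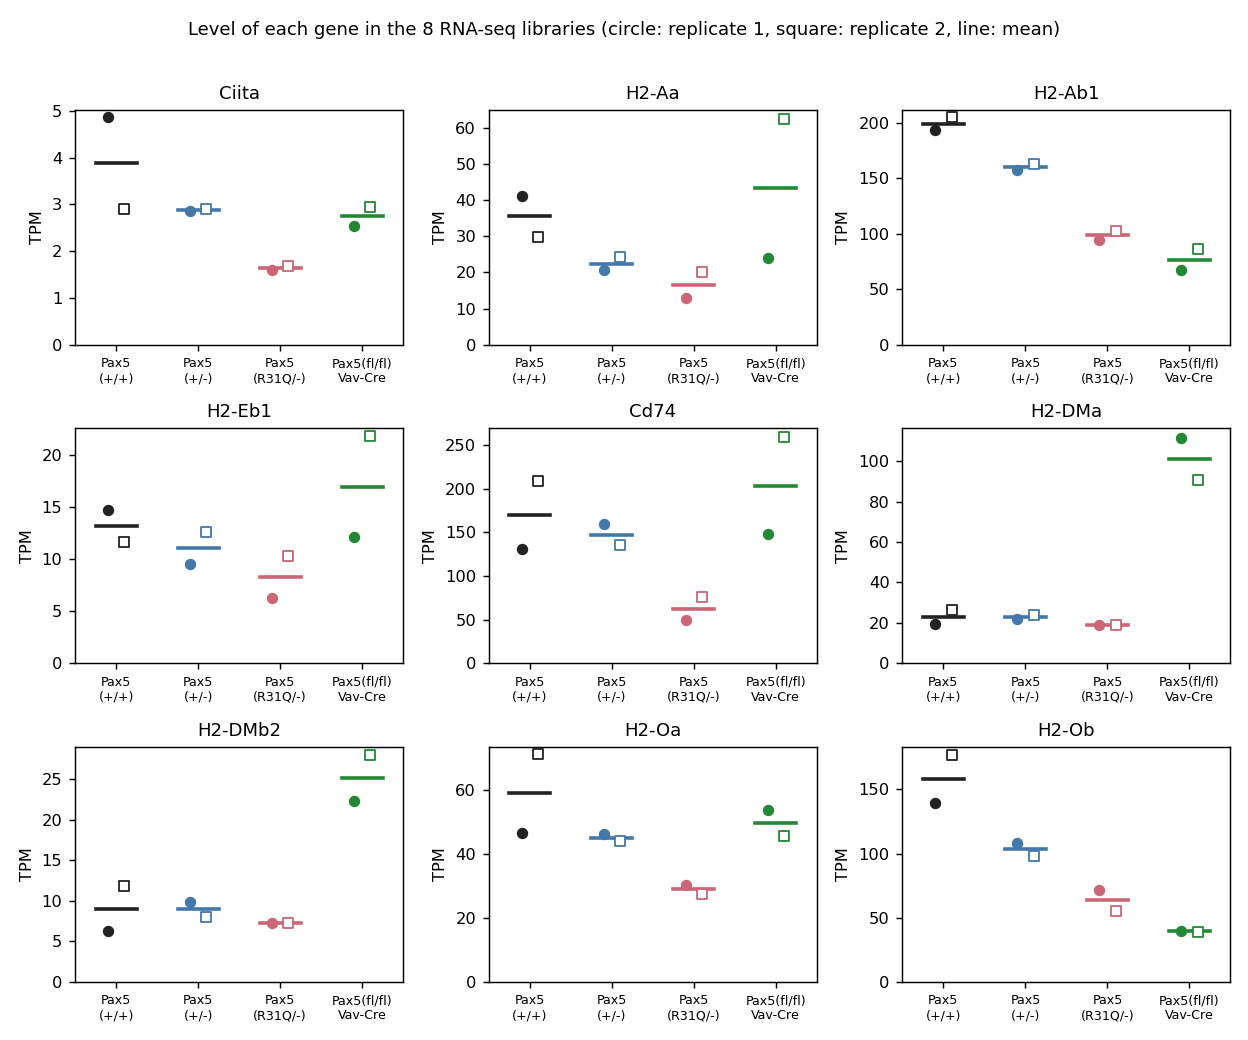
TPM (linear axis from 0) of each member in the 8 RNA-seq libraries, by genotype, with a circle for replicate 1, a square for replicate 2 and a line for their mean. The Pax5(R31Q/-) pair is the lowest for Ciita, H2-Aa, Cd74, H2-Oa and, by its mean, H2-Eb1, whereas H2-Ab1 and H2-Ob are lowest in Pax5(fl/fl) Vav-Cre and H2-DMa and H2-DMb2 highest there.

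In Pax5(+/+) cells the order of the levels ran from H2-Ab1 over Cd74, H2-Ob, H2-Oa, H2-Aa, H2-DMa, H2-Eb1 and H2-DMb2 to Ciita. H2-Ab1 and Cd74, Cd74 and H2-Ob, and H2-Eb1 and H2-DMb2 overlapped between libraries, and the other neighbours in the order did not. In Pax5(fl/fl) Vav-Cre cells the order was Cd74, H2-DMa, H2-Ab1, H2-Oa, H2-Aa, H2-Ob, H2-DMb2, H2-Eb1 and Ciita, with H2-DMa moved from sixth to the second place and H2-Ob from the third to sixth. There H2-Aa, with its wide spread, overlapped H2-Oa, H2-Ob and H2-DMb2. In the first library it lay under H2-Ob, so that its place relative to H2-Oa and H2-Ob rests on 1 library. The summed level of the 9 members was 595.9 and 744.6 TPM in Pax5(+/+), 537.2 and 512.2 in Pax5(+/-), 293.6 and 318.9 in Pax5(R31Q/-) and 480.4 and 635.6 in Pax5(fl/fl) Vav-Cre libraries.

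The first comparison asks how the class II genes stood in cells whose only Pax5 was the R31Q protein. In Pax5(R31Q/-) cells compared with Pax5(+/+) cells, H2-Ob, H2-Ab1 and H2-Oa fell, which are 3 of the 9 members, and none rose in limma, in limma-voom or at an unadjusted p under 0.05. By limma on log2(TPM + 1) over all 8 libraries, with Benjamini-Hochberg adjustment over all genes tested and a threshold of 0.05, 2.55% of all genes were lower and 1.62% higher in this comparison. H2-Ob, the beta chain of H2-O, went from 157.8 ± 26.4 to 63.4 ± 11.6 TPM (SD, n = 2), -1.30 on the log2 scale (standard error, SE, 0.17, limma-adjusted p = 0.00663). H2-Ab1, the beta chain of I-A, went from 199.1 ± 8.23 to 98.5 ± 5.38 TPM (SD, n = 2), -1.01 on the log2 scale (SE 0.14, limma-adjusted p = 0.00806). H2-Oa, the alpha chain of H2-O, went from 59 ± 17.6 to 29 ± 2.03 TPM (SD, n = 2), -0.97 on the log2 scale (SE 0.20, limma-adjusted p = 0.0396). Of these calls that of H2-Oa was the least stable, and it passed in 8 of 17 alternatives.

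The other 6 members did not pass. Cd74 had the most negative log2 fold change of all 9, -1.42 (SE 0.33, limma-adjusted p = 0.0608), and Ciita had -0.86 (SE 0.22, limma-adjusted p = 0.0802). H2-Aa had -1.07 and H2-Eb1 -0.63, with adjusted p of 0.225 and 0.337 from limma, and the H2-M genes H2-DMa and H2-DMb2 had -0.23 each, with 0.499 and 0.667. All 9 differences were negative, with a median of -0.97 against 0.04 over all genes. In 8 of the 9 members, all except H2-DMb2, both Pax5(R31Q/-) libraries lay under both Pax5(+/+) libraries, which was so for 25% of all genes tested.

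These calls depended on single libraries and, for H2-Oa, on the fit. H2-Oa missed the threshold with no filter on low values, with only the 2 genotypes in the fit and with eBayes without a trend, where H2-Ab1 and H2-Ob passed. Without the second Pax5(+/+) library or without the second Pax5(R31Q/-) library 0 members passed, and without the first Pax5(R31Q/-) library only H2-Ob did. H2-Oa also missed the threshold without either Pax5(+/-) library or without the first Pax5(fl/fl) Vav-Cre library, and Cd74 passed without the second. A fit by limma-voom on the whole reads recovered from the TPM values passed 5 members as lower, adding Cd74 and Ciita to the same 3. Some genes of later B cells were lower too. Ms4a1, which encodes CD20, had 14.0 and 25.8 TPM in Pax5(+/+) and 1.18 and 4.83 in Pax5(R31Q/-) libraries. Cd22 fell as well, and Fcer2a had 0.884 and 1.91 against 0.244 and 0.405 TPM. Of the 10 later B cell genes tested, 2 fell and 1 rose, and the summed level of this list was 523.7 and 558.7 TPM in Pax5(+/+) and 955.7 and 906.9 in Pax5(R31Q/-) libraries. The summed level of macrophage and granulocyte genes was 638.5 and 416.7 TPM in Pax5(+/+) and 1018.2 and 966.6 in Pax5(R31Q/-) libraries, with S100a9 at 292.0 and 158.0 against 471.6 and 461.4 TPM, and 8 of the 10 tested had a positive difference with a median of 0.44, though 0 passed in limma or limma-voom and 1 was higher at an unadjusted p under 0.05. In Pax5(+/-) cells 9 of these 10 genes had a positive difference, with a median of 0.58. The part of both lists in the result was not tested.

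**Figure D2:**
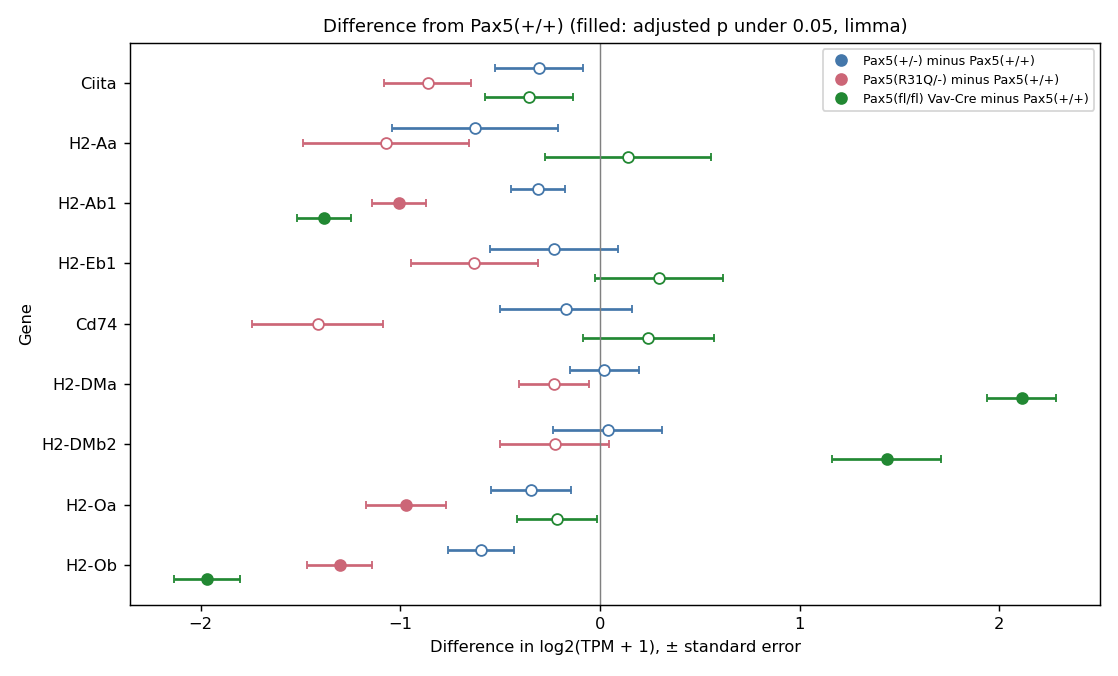
Difference of each member from Pax5(+/+) in log2(TPM + 1), with the standard error from limma as bars, for Pax5(+/-), Pax5(R31Q/-) and Pax5(fl/fl) Vav-Cre, which share the Pax5(+/+) libraries. Filled points, with an adjusted p under 0.05, lie between -1.97 for H2-Ob and 2.11 for H2-DMa, both in Pax5(fl/fl) Vav-Cre.

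The loss of 1 Pax5 allele alone is the control for gene dose. Between Pax5(+/-) and Pax5(+/+) cells, 0 of the 9 members passed in limma, 0 in limma-voom, and at an unadjusted p under 0.05 only H2-Ob was lower. This contrast had few calls in all, with 0.0223% of genes lower and 0% higher. H2-Ob had -0.60 on the log2 scale (SE 0.17, limma-adjusted p = 0.461), H2-Aa -0.63, H2-Oa -0.35, H2-Ab1 and Ciita -0.31, H2-Eb1 -0.23 and Cd74 -0.17, and the H2-M genes had 0.02 and 0.04.

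Set against this dose control, Pax5(R31Q/-) cells had negative differences in all 9 members, and their median was -0.56 on the log2 scale against 0.01 for all genes, but 0 members passed in limma, where 0.35% of all genes were lower and 0.268% higher. At an unadjusted p under 0.05, 5 members were lower, and limma-voom passed H2-Ab1. H2-Ab1 had -0.70 on the log2 scale (SE 0.14, limma-adjusted p = 0.0884), Cd74 -1.25 (adjusted p = 0.222) and H2-Ob -0.71 (adjusted p = 0.158). In 8 of the 9 members, all except H2-Eb1, both Pax5(R31Q/-) libraries lay under both Pax5(+/-) libraries, against 26% of all genes. When the fit held only these 2 genotypes, Cd74, H2-Ab1 and H2-Oa passed.

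The Pax5(fl/fl) Vav-Cre cells showed no common direction. Between Pax5(fl/fl) Vav-Cre and Pax5(+/+) cells, H2-DMa and H2-DMb2 rose and H2-Ob and H2-Ab1 fell, 2 of the 9 members in each direction. Of all genes 16.2% were higher and 19.7% lower, shares near those of the members. H2-DMa, which encodes the alpha chain of H2-M, went from 22.8 ± 4.84 to 101.2 ± 14.8 TPM (SD, n = 2), 2.11 on the log2 scale (SE 0.17, limma-adjusted p = 0.000114). H2-DMb2, a beta chain of H2-M, went from 9 ± 3.94 to 25.1 ± 3.95 TPM (SD, n = 2), 1.44 on the log2 scale (SE 0.27, limma-adjusted p = 0.0055). The change of H2-DMa exceeded 3-fold and that of H2-DMb2 did not on this scale.

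On the other side, H2-Ob went down to 39.3 ± 0.199 TPM (SD, n = 2), -1.97 on the log2 scale (SE 0.17, limma-adjusted p = 0.00012), and H2-Ab1 to 76.3 ± 13.4 TPM (SD, n = 2), -1.38 on the log2 scale (SE 0.14, limma-adjusted p = 0.000255). These 4 calls held under all 17 alternatives tried, each single library left out included. The remaining members had log2 fold changes of 0.30 for H2-Eb1, 0.24 for Cd74, 0.14 for H2-Aa, -0.21 for H2-Oa and -0.36 for Ciita, with adjusted p between 0.237 and 0.815 from limma. H2-Aa, H2-Eb1 and Cd74 had their higher value in the second Pax5(fl/fl) Vav-Cre library, and without it the log2 fold changes were -0.54, -0.10 and -0.16. Cd74 was at -0.10 without the first Pax5(+/+) library, and H2-Aa at -0.08 without the second.

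The 2 other class II genes of the list rose with the H2-M pair. H2-DMb1, the second H2-M beta chain gene, had 7.39 and 10.6 TPM in Pax5(+/+) and 34.9 and 36.0 in Pax5(fl/fl) Vav-Cre libraries, 1.89 on the log2 scale (limma-adjusted p = 0.000441), and H2-Eb2 had 1.74 and 1.02 against 14.7 and 13.1 TPM, 2.66 on the log2 scale (limma-adjusted p = 0.00049). In Pax5(R31Q/-) cells their log2 fold changes were 0.00 and 0.67, neither passing, with 9.9 and 7.95 TPM for H2-DMb1 and 2.61 and 2.87 TPM for H2-Eb2. H2-DMb1 and H2-DMb2 are near-identical copies, and since only uniquely mapping reads were counted, the split of reads between them is uncertain. H2-Ea was not among the genes of the tables.

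The Pax5(fl/fl) Vav-Cre and the Pax5(R31Q/-) cells were also compared directly. Cd74, H2-DMa, H2-DMb2 and H2-Oa were higher in Pax5(fl/fl) Vav-Cre cells and H2-Ob lower, in a contrast where 14.7% of all genes were higher and 19.9% lower. The log2 fold changes were 1.66 for Cd74 (SE 0.33, limma-adjusted p = 0.00802), 2.34 for H2-DMa, 1.66 for H2-DMb2 and 0.76 for H2-Oa, and -0.66 for H2-Ob (limma-adjusted p = 0.0189). H2-Aa with 1.21, H2-Eb1 with 0.92 and Ciita with 0.51 were above 0 without passing (adjusted p of 0.0569, 0.0584 and 0.108 from limma). By limma-voom these 3 passed too, and median-ratio scaling and quantile normalization passed H2-Aa and H2-Eb1. H2-Ab1 had -0.37 and an adjusted p of 0.0666 from limma. Without the first Pax5(R31Q/-) library only H2-DMa and H2-DMb2 passed, without the second H2-Oa no longer passed, without the first Pax5(+/+) library Ciita passed too, without the first Pax5(fl/fl) Vav-Cre library H2-Oa and H2-Ob no longer passed and H2-Aa and H2-Eb1 did, and without the second H2-Ab1 was lower as well.

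Ratios within a library show how far partners kept together, and they do not depend on the scaling of the library. The ratio of H2-Ob to H2-Oa was 2.99 and 2.47 in Pax5(+/+), 2.34 and 2.23 in Pax5(+/-), 2.36 and 2 in Pax5(R31Q/-) and 0.733 and 0.856 in Pax5(fl/fl) Vav-Cre libraries. H2-Ob was the higher of both chains in the first 3 genotypes, with the Pax5(+/+) ratios above those of the other genotypes, and H2-Oa was the higher in the last. The ratio of H2-DMa to H2-Ob, the loader against its restraint, was 0.139 and 0.148, 0.202 and 0.244, 0.267 and 0.345, and 2.83 and 2.32 in the same order, and none of the 4 genotypes overlapped. The ratio of H2-Aa to H2-Ab1 was between 0.13 and 0.213 in the 6 libraries of the other 3 genotypes and 0.357 and 0.728 in the Pax5(fl/fl) Vav-Cre libraries. The ratio of H2-DMa to H2-DMb2 was between 2.22 and 3.11 in those 6 libraries and 5 and 3.25 in the Pax5(fl/fl) Vav-Cre libraries, with the shorter gene model of H2-DMb2 behind its size. The smallest p that an exact permutation test of 2 libraries against 2 allows is 0.333, and the ratios are therefore given without a test.

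**Figure D3:**
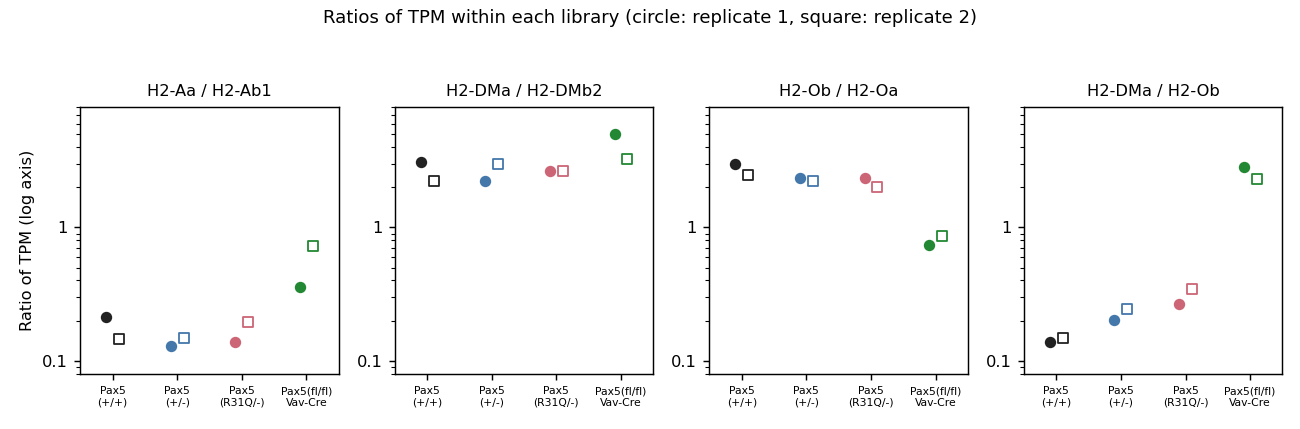
Ratio of the TPM of 2 members within each library (log axis), by genotype, with a circle for replicate 1 and a square for replicate 2. H2-Ob to H2-Oa falls from 2 or more to under 1 in Pax5(fl/fl) Vav-Cre, and H2-DMa to H2-Ob goes from 0.139 and 0.148 in Pax5(+/+) to 2.83 and 2.32.

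Pax5 peaks were next set beside the genes, to ask where the wild-type and the R31Q protein were found around them. Of the 16 Rag2(-/-) peaks in or within 10 kb of members, 10 were met by a Pax5(R31Q/-) peak with at least 1 shared base, and 10 of the 14 Pax5(R31Q/-) peaks were met in turn. Around all tested genes the shares were 69.1% and 83.1%. Of the members, 3 of 9 had a Rag2(-/-) peak within 1 kb of a curated RefSeq start site, namely H2-DMa, H2-DMb2 and H2-Ob, against 66.8% of tested genes, and 3 of 9 had a Pax5(R31Q/-) peak there, namely Ciita, H2-DMa and H2-DMb2, against 71.9%. There is 1 library per list and the files hold no peak height, so the peaks have no replicate check.

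H2-DMa, which did not pass in Pax5(R31Q/-) cells, had the most peaks of the members, 6 in Rag2(-/-) and 7 in Pax5(R31Q/-) cells, of which 3 in each list had their midpoint in Brd2, and all but 1 were common. H2-DMb2 had 3 in each list, all common and shared with the window of H2-DMa. A peak spanned the first start of H2-DMa in both lists, at chr17:34121896-34122957 in Rag2(-/-) and chr17:34121511-34123022 in Pax5(R31Q/-) cells, but it also spans a start of the divergent gene Brd2, which encodes a bromodomain protein, and its midpoint lies in an exon of Brd2. Brd2 had between 248.8 and 330.5 TPM over the 8 libraries and passed in none of the comparisons. A second common peak, chr17:34135289-34135624 in Rag2(-/-) cells, covers the untranslated part of an internal exon of H2-DMa and holds the letters of the Y box. Before this TGATTGG, at the spacing searched, it has GAC in place of AAC. The search for AAC therefore did not count it as a pair, and it lies outside the promoter windows of H2-DMa. At H2-DMb2, common peaks lay on the first start and 55 bases from the second, and the latter contains the whole X and Y stretch of this gene. It was the only one of the 5 member stretches inside a peak of either list. Of all peaks, 0.305% in Rag2(-/-) and 0.638% in Pax5(R31Q/-) cells hold both motifs at this spacing.

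H2-Ob, the member that fell furthest by the test in Pax5(R31Q/-) cells, had 2 peaks in Rag2(-/-) cells. The upstream one, chr17:34234832-34235296 between genes, was met by a Pax5(R31Q/-) peak of 603 bp. The other, in an intron and 848 bases behind the start at its midpoint, was not met, and the nearest Pax5(R31Q/-) peak to the start was 3511 bases away. The other genes that fell had no common peak within 10 kb. H2-Oa had 1 Rag2(-/-) peak in an intron, chr17:34093494-34093783, and 1 Pax5(R31Q/-) peak beyond its end, neither of them met. H2-Ab1 had 1 Rag2(-/-) peak 5471 bases before its start, not met, and 1 Pax5(R31Q/-) peak in an intron, chr17:34264801-34265335, not met either. Of the 4 Rag2(-/-) peaks at the 3 genes that fell, 1 was met, which with so few peaks is a description only. The intronic H2-Ob peak was the only start-site peak of a member in the Rag2(-/-) list that the Pax5(R31Q/-) list lacked.

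At Ciita, 4 Rag2(-/-) peaks lay in introns, all behind the 3 curated starts at 10480072, 10488178 and 10489781, and the first 2 of them were common. A peak of the Pax5(R31Q/-) list alone, chr16:10488819-10489143, lay between the second and the third start, 641 and 638 bases from them. Values per gene do not show which start was used. The common peak nearest to the starts, 6352 bases behind the third, was the only one of the 16 member peaks to hold GCGTNAC, a core of the sequence that the Pax5 paired domain binds, searched on both strands in the central 300 bases. This core was in 6.21% of all Rag2(-/-) peaks and 10.9% of all Pax5(R31Q/-) peaks, and in 5.96% of promoter windows but in none of the 7 of the members. The whole peak, chr16:10496012-10496255 on the plus strand, is printed with the core in capitals.
Ciita peak: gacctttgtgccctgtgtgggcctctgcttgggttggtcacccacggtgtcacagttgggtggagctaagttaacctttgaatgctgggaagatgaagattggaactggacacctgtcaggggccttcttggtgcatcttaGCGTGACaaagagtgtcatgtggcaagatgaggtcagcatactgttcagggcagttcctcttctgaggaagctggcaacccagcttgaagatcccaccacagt

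Cd74 had a common intronic peak with its midpoint 2074 bases behind the start, and an unmet Rag2(-/-) peak at its last exon. H2-Aa and H2-Eb1, which encode chains of I-A and I-E, had no peak of either list within 10 kb, and the nearest Rag2(-/-) peaks to their starts were 29896 and 43660 bases away. Of the 10 common peaks, 8 were wider in the Pax5(R31Q/-) list, with a median ratio of 1.21 against 1.22 over all common peaks.

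**Figure D4:**
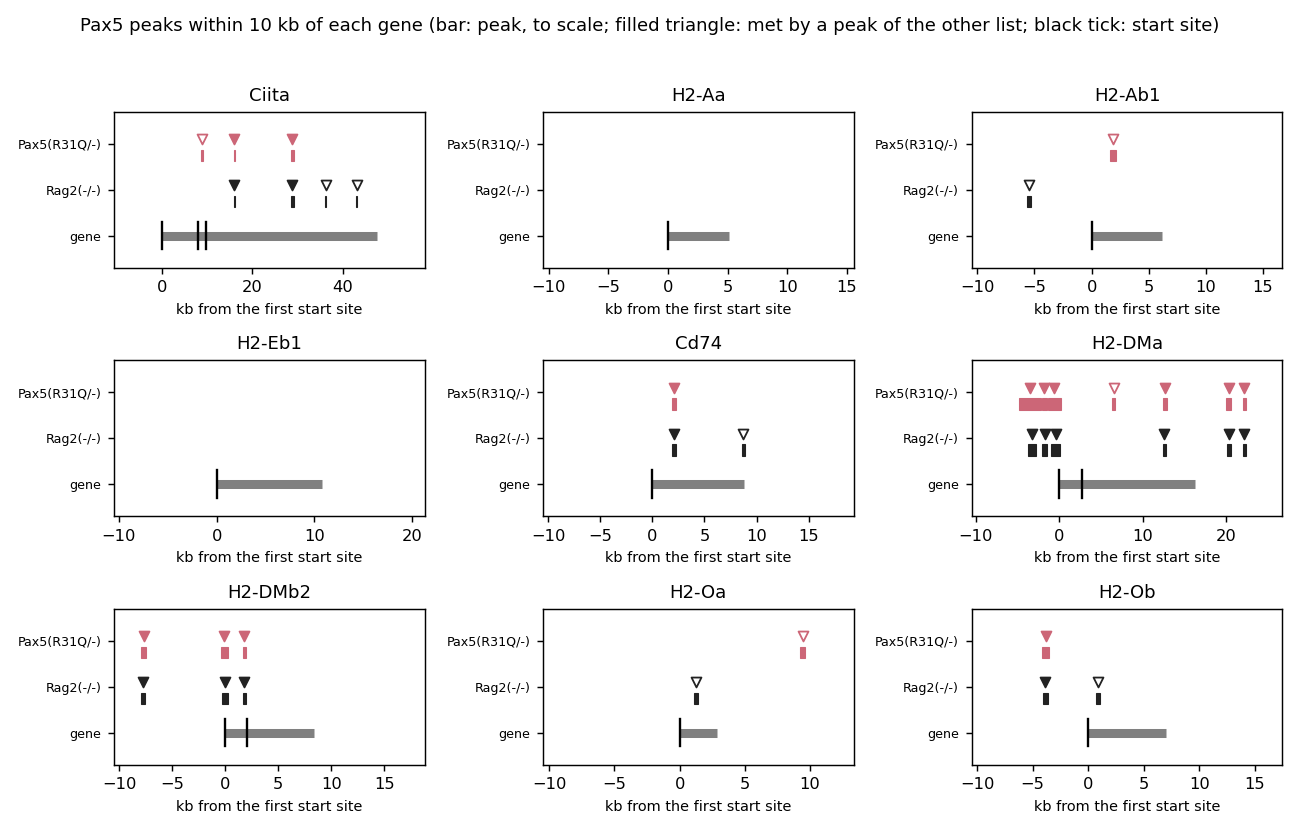
Pax5 peaks within 10 kb of each member, drawn to scale by their distance in kb from the gene's first start site in the direction of transcription, with the gene as a grey bar and its start sites as black ticks; filled triangles mark peaks that overlap a peak of the other list. H2-DMa has 6 Rag2(-/-) and 7 Pax5(R31Q/-) peaks, some of them shared with the panel of H2-DMb2, and H2-Aa and H2-Eb1 have none.

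The genes that act on class II transcription were looked at next, from gene lists. Of the 7 factors of the X and Y boxes, none passed between Pax5(R31Q/-) and Pax5(+/+) cells in limma, 0 in limma-voom and 1, lower, at an unadjusted p under 0.05. In Pax5(fl/fl) Vav-Cre cells Rfxap, a subunit of RFX, and Nfyb and Nfyc, subunits of NF-Y, were lower, and limma-voom passed 2 of the list as lower. Of the 8 factors known at Ciita promoters, Irf1 rose in Pax5(R31Q/-) cells, from 95.0 and 82.0 to 142.9 and 125.8 TPM (log2 fold change 0.60, limma-adjusted p = 0.036). This call passed in 9 of 17 alternatives, and it was lost with no filter on low values, with only the 2 genotypes in the fit, with eBayes without a trend, and without the second Pax5(+/+) library, either Pax5(+/-) or either Pax5(R31Q/-) library, with adjusted p over all alternatives between 0.0192 and 0.27. Irf8, which acts with the Ets factor PU.1, had 199.4 and 189.1 TPM in Pax5(+/+) and 118.2 and 106.4 in Pax5(R31Q/-) libraries, without passing, and its relative Irf4 had 184.0 and 146.4 against 130.3 and 96.5 TPM. Tcf3, which encodes the E2A proteins, had 869.0 and 794.1 TPM in Pax5(R31Q/-) libraries (log2 fold change -0.61, limma-adjusted p = 0.0884). At an unadjusted p under 0.05, 3 of the list were lower and 1 higher in Pax5(R31Q/-) cells, and limma-voom passed 1 as higher and 0 as lower. In Pax5(fl/fl) Vav-Cre cells Spi1, which encodes PU.1, Irf1, Irf8 and Myc rose, and Irf4 and Tcf3 fell. Tcf3 had 1106.9 and 1462.4 TPM in Pax5(+/+) and 264.8 and 269.4 in Pax5(fl/fl) Vav-Cre libraries, and Irf4 had 31.1 in both of the latter. The call of Irf8 was lost without either Pax5(+/+) library, with no filter on low values and with only the 2 genotypes in the fit.

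Of the 7 tested genes of class II processing and turnover, 4 rose in Pax5(fl/fl) Vav-Cre cells. Ctss, Ctsl, Ctsd and Lgmn, all endosomal proteases, were higher and Ifi30, a thiol reductase, lower than in Pax5(+/+) cells. Lgmn, the asparagine endopeptidase, was higher in Pax5(R31Q/-) cells too, with 78.8 and 72.7 TPM in Pax5(+/+), 102.4 and 91.6 in Pax5(+/-), 160.8 and 158.6 in Pax5(R31Q/-) and 239.8 and 268.2 in Pax5(fl/fl) Vav-Cre libraries, and it was the only one of the list to pass in Pax5(R31Q/-) cells (log2 fold change 1.07, limma-adjusted p = 0.00311). Of 11 genes of class I presentation, 10 had in Pax5(R31Q/-) cells a positive difference from Pax5(+/+) with a median of 0.29. In Pax5(+/-) cells all 11 did, with a median of 0.26, and between Pax5(R31Q/-) and Pax5(+/-) cells 4 did, with a median of -0.02. Nlrc5, the class I counterpart of Ciita, passed between Pax5(R31Q/-) and Pax5(+/+) cells, with 32.9 and 29.9 TPM in Pax5(+/+), 50.5 and 58.0 in Pax5(+/-), 60.1 and 54.9 in Pax5(R31Q/-) and 84.8 and 91.0 in Pax5(fl/fl) Vav-Cre libraries (log2 fold change 0.85 in Pax5(R31Q/-), limma-adjusted p = 0.0109). In Pax5(fl/fl) Vav-Cre cells 8 of the 11 were higher, among them Tap1, Tap2, Psmb8 and Psmb9, which lie between H2-DMb1 and H2-Ob on chromosome 17. The calls of Lgmn and Nlrc5 in Pax5(R31Q/-) cells were lost without either Pax5(R31Q/-) library, and that of Nlrc5 also without the second Pax5(+/+) library, while that of Ifi30 in Pax5(fl/fl) Vav-Cre cells was lost without either library of that genotype or the second Pax5(+/+) library. Of 3 co-stimulatory genes tested, Icosl rose in Pax5(R31Q/-) cells, and in Pax5(fl/fl) Vav-Cre cells Icosl and Cd86 rose and Cd40 fell. Of 10 interferon response genes none passed in Pax5(R31Q/-) cells in limma, 0 in limma-voom and 2, both higher, at an unadjusted p under 0.05, and 4 were higher in Pax5(fl/fl) Vav-Cre cells.

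**Figure D5:**
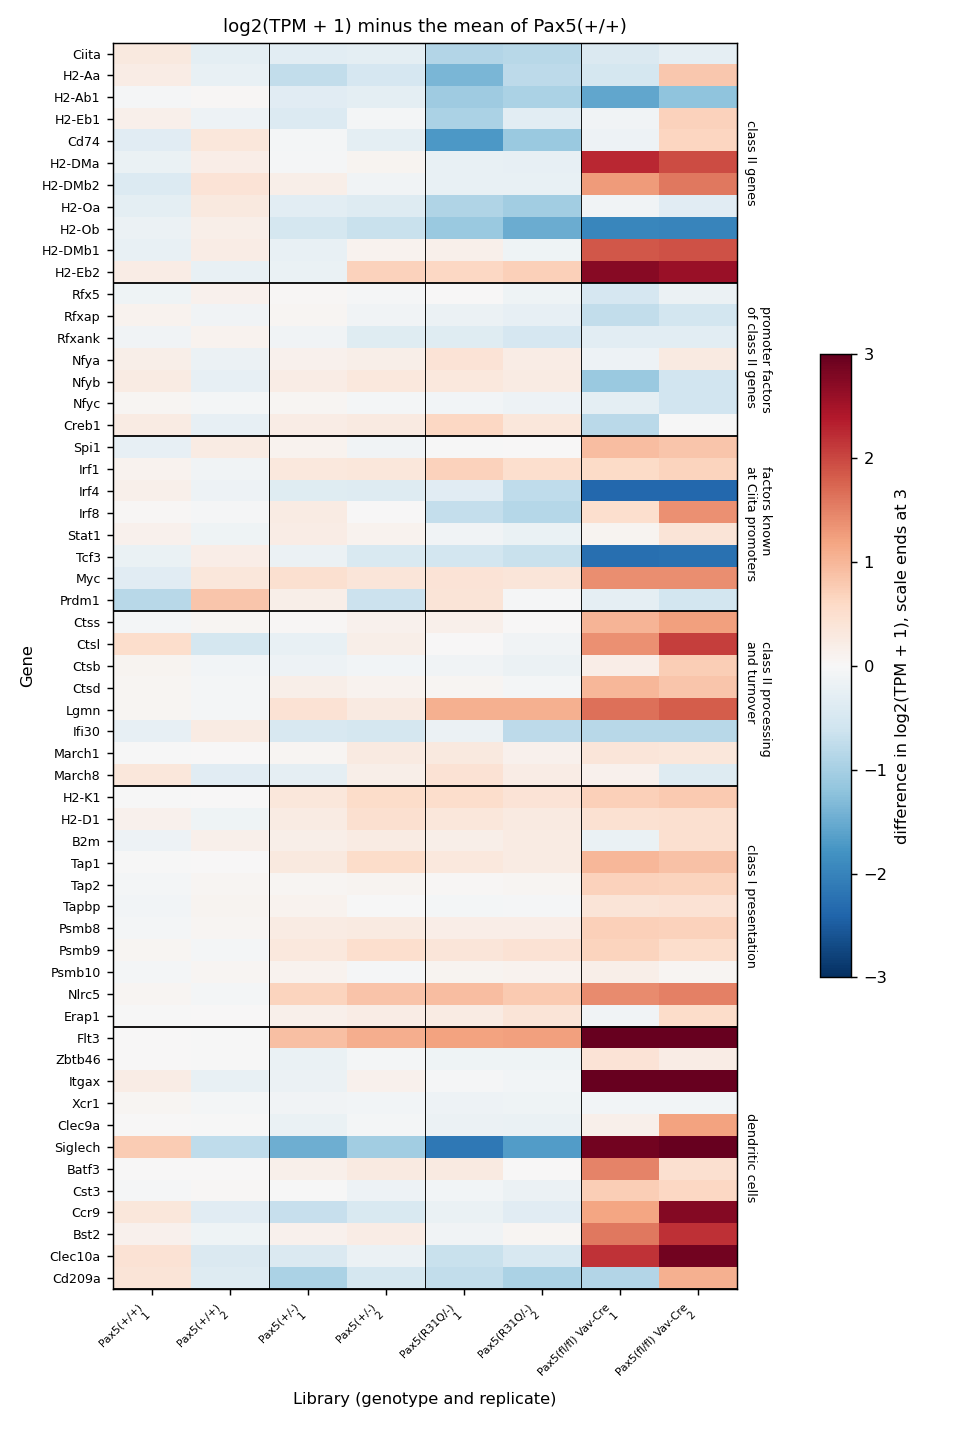
Difference of each gene in each library from the mean of the Pax5(+/+) libraries in log2(TPM + 1), for the class II genes and 5 lists, with the colour scale ending at 3. Most class II genes are blue in the Pax5(R31Q/-) columns, and in the Pax5(fl/fl) Vav-Cre columns the H2-M genes, H2-Eb2 and several dendritic cell genes are red while H2-Ob, Irf4 and Tcf3 are blue.

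Markers of other cells that carry class II molecules also differed in the Pax5(fl/fl) Vav-Cre libraries, where the members had no common direction. Of the 10 dendritic cell genes tested, 8 were higher than in Pax5(+/+) cells. Their summed level over the 12 genes listed was 1701.3 and 1912.8 TPM, against 673.2 and 673.5 in Pax5(+/+), 673.7 and 644.8 in Pax5(+/-) and 641.1 and 620.8 in Pax5(R31Q/-) libraries. Flt3, a receptor of progenitors and dendritic cells, had 385.1 and 356.3 TPM against 9.79 and 9.54 in Pax5(+/+), and Siglech, a marker of plasmacytoid dendritic cells, 54.4 and 158.5 against 11.7 and 3.37. Among genes of conventional dendritic cells, Itgax, which encodes CD11c, rose from 0.697 and 0.261 to 13.7 and 20.5 TPM (log2 fold change 3.60, limma-adjusted p = 5.5e-05), Clec10a rose from 2.06 and 0.698 to 9.23 and 16.0 TPM, and Batf3, listed at 0 in both Pax5(+/+) libraries, passed as higher with 1.82 and 0.398 TPM. Zbtb46, Xcr1 and Clec9a had at most 1.89 TPM in any library. Cst3, with 481.1 to 558.8 TPM, made up most of the sum in the other genotypes. In Pax5(R31Q/-) cells 2 of the 10 dendritic cell genes had a positive difference from Pax5(+/+), with a median of -0.16. At an unadjusted p under 0.05, 1 was higher and 1 lower there. Flt3, with 23.6 and 23.9 TPM, passed as higher in limma, and Siglech had 0.694 and 1.33 TPM in the Pax5(R31Q/-) libraries. Of 13 pro-B cell genes 9 fell and Dntt rose in Pax5(fl/fl) Vav-Cre cells, Lck and Nkg7 rose and Klrb1c fell among 5 genes of T and NK cells, 1 of 2 genes of red cells fell, and Jchain rose among 4 of plasma cells, from 0.718 and 2.26 to 273.1 and 408.5 TPM. The list did not move as 1 between the Pax5(fl/fl) Vav-Cre libraries. Siglech, Ccr9, Clec10a, Clec9a, Itgax, Bst2 and Cd209a were higher in the second, as were Cd74, H2-Aa, H2-Eb1, H2-Ab1, H2-DMb2 and Ciita, whereas Flt3, Cst3, Batf3, Zbtb46 and Xcr1 were higher in the first, as were H2-DMa, H2-Oa and, by little, H2-Ob. In the Pax5(+/+) libraries Siglech was higher in the first, as were Ciita, H2-Aa and H2-Eb1, whereas Cd74, H2-Ab1, H2-DMa, H2-DMb2, H2-Oa and H2-Ob were higher in the second. Genes of macrophages and granulocytes summed to 2158.4 and 417.7 TPM in the Pax5(fl/fl) Vav-Cre libraries, with S100a9 at 1105.0 and 139.9 and Mpo at 132.2 and 16.6, and to 687.0 and 1572.9 TPM in the Pax5(+/-) libraries, and Cd14 was at most 0.36 TPM in any library. Of the macrophage and granulocyte genes 10 were tested, and Csf1r and Ly6c2 were higher in Pax5(fl/fl) Vav-Cre cells. Their part in the class II values was not tested. H2-DMa, H2-DMb2, H2-Ob and H2-Ab1 kept their calls without either of these libraries.

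Of all genes outside the lists, the 5 whose pattern over the 8 libraries was closest to that of Ciita, by the root mean square difference of centred log2(TPM + 1) among 12440 genes with a mean of at least 1 TPM, were Magee2 (0.10), Kdm5b (0.14), Fndc3b (0.16), Ripor2 (0.17) and Gk5 (0.17). Kdm5b, which encodes a histone demethylase, had 40.6 and 35.8 TPM in Pax5(+/+), 30.4 and 28.6 in Pax5(+/-), 18.6 and 16.6 in Pax5(R31Q/-) and 25.7 and 27 in Pax5(fl/fl) Vav-Cre libraries, a pattern fixed by its selection. The nearest member by the same measure was H2-Oa with 0.33, at rank 1173 of the 12440 genes, followed by H2-Eb1 with 0.35 at rank 2003, and the farthest was H2-DMa with 0.996 at rank 11756, so that over 1000 other genes lay closer to Ciita than any member did.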

How the data were processed

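RNA-seq values of 8 libraries and Pax5 ChIP-seq peaks of 2 libraries were used as deposited. The authors aligned reads to GRCm38/mm10 with STAR 2.4.2 after removal of ribosomal reads, counted uniquely mapping reads per gene and deposited TPM. How strand was used is not given in the sources used here, so H2-Oa, which lies within BC051537 on the other strand, is uncertain to the level of that gene. Peaks were called with MACS in each library separately, and the deposited files hold positions only.

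Samples were grouped by their labels, and replicates were numbered in accession order. The filter kept a gene if any library reached 1 TPM. The fit used limma (version 3.58.1, under R 4.3.3), log2(TPM + 1) as the response, eBayes with a trend, all 4 genotypes and 5 contrasts. Fold changes are on that scale, which understates those of low genes such as Ciita. The smallest steps between TPM values gave back whole reads, within 0.001 of a read, in 18206 of 18206 genes found in 2 or more libraries, and thereby the depth. The scripts were tested on simulated data. Start sites and gene bodies came from curated RefSeq transcripts of GRCm38.p6, with Python 3.11.15 and pysam 0.24.0.

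The members and gene lists were chosen with earlier results of these data known. Named are the 9 members, genes of the lists, neighbours within 50 kb and the 5 genes most like Ciita. A few list genes and peak sequences are not reported here.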

Additional observations from a re-analysis of the deposited data

How the results depend on the processing

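Of the 45 differences of members, 379 of 400 values under the alternatives other than leaving out a library kept their direction and side of the threshold, 3 lost their call, all of H2-Oa between Pax5(R31Q/-) and Pax5(+/+), 17 gained one and 1 changed its sign, H2-DMa between Pax5(+/-) and Pax5(+/+), from 0.02 to -0.005 under median-ratio scaling. With a library left out, 324 kept both, 17 lost a call, 7 gained one and 12 changed sign, all of values that had not passed. The latter ranged from -0.51 to 0.17 for Cd74, from -0.19 to 0.23 for H2-DMa and from -0.37 to 0.45 for H2-DMb2 between Pax5(+/-) and Pax5(+/+), from -0.64 to 0.18 for H2-DMb2 between Pax5(R31Q/-) and Pax5(+/+), and, between Pax5(fl/fl) Vav-Cre and Pax5(+/+), from -0.16 to 0.64 for Cd74, from -0.54 to 0.82 for H2-Aa, from -0.10 to 0.70 for H2-Eb1 and from -0.52 to 0.089 for H2-Oa. The number of members lower in Pax5(R31Q/-) than in Pax5(+/+) was 3, became 5 with limma-voom, 4 with median-ratio scaling and 2 with no filter on low values, with only the 2 genotypes in the fit or with eBayes without a trend, and ranged from 0 to 4 with a library left out. Against Pax5(+/-) it was 0, became 3 with only the 2 genotypes in the fit and 1 with median-ratio scaling, quantile normalization or limma-voom, and ranged from 0 to 1. Between Pax5(fl/fl) Vav-Cre and Pax5(R31Q/-), the number higher was 4, became 7 with limma-voom, 6 with median-ratio scaling or quantile normalization and 5 with a filter at 5 TPM, and ranged from 2 to 5 with a library left out, and the number lower was 1 and ranged from 0 to 2. With the other library gone, the lone library of a genotype is assumed to vary like the rest, and otherwise the cause was not tested. Over all genes, limma-voom passed 827 genes between Pax5(R31Q/-) and Pax5(+/+), against 560. The median difference over all genes was -0.11 between Pax5(fl/fl) Vav-Cre and Pax5(+/+) and -0.13 between Pax5(fl/fl) Vav-Cre and Pax5(R31Q/-). With 50 kb on each side in place of 10 kb, the peaks in or near members were 36 for Rag2(-/-) and 29 for Pax5(R31Q/-), and 23 Rag2(-/-) peaks were met; of the peaks at least as wide as their list's median, 6 were from the Pax5(R31Q/-) list. With 2.5 kb around start sites, 5 members had a Rag2(-/-) peak and 5 had a Pax5(R31Q/-) peak, but not the same 5. The precision is limited by 2 libraries a genotype and 1 per peak list, and for Ciita and H2-DMb2 also by reads. No paired analysis was possible because replicate numbers were given in accession order.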

Other observations

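Of the 16 tested genes within 50 kb of a member, none passed between Pax5(R31Q/-) and Pax5(+/+) cells in limma, 0 did in limma-voom, and 2 were higher and 1 lower at an unadjusted p under 0.05. Between Pax5(fl/fl) Vav-Cre and Pax5(+/+) cells, the neighbours of the H2 members that passed were H2-DMb1, H2-Eb2, Tap1, Tap2, Psmb8 and Psmb9, which rose, and the butyrophilin-like gene Btnl2, which fell from 1.09 and 1.63 to 0.156 and 0.193 TPM. Dexi, whose end lies beyond that of Ciita, rose from 25.5 and 28.9 to 36.8 and 37.7 TPM (log2 fold change 0.44, adjusted p = 0.0355 from limma). Rps14, a ribosomal protein gene before Cd74, had 3978.8 and 3592.6 against 6000.6 and 4972.6 TPM.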
